A study of Mus musculus with 5 samples.

Results

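The interferon-inducible GTPases described here are 10 mouse genes: the guanylate-binding proteins Gbp2, Gbp3, Gbp5, Gbp7 and Gbp9, and the immunity-related GTPases Irgm1, Irgm2, Igtp, Iigp1 and Ifi47. They were picked by symbol from a deposited expression table of 21990 genes, of which 16003 have a value, and all 10 were found. The cells are RAW264.7, a mouse monocyte/macrophage line derived from a virus-induced tumour. Control cells carried Renilla luciferase. CD137 cells carried Renilla luciferase and, in addition, mouse Cd137, the TNF receptor family member encoded by Tnfrsf9. Both groups therefore share the luciferase, and no stimulus, interferon or time point is named in the labels. How the sequences were introduced, and whether each line is a clone or a pool, is not given in the sources used here. Of 5 samples, 2 controls and 3 CD137 samples, 3 have values in the table: replicate 2 of the control and replicates 2 and 3 of CD137. Replicate 1 of each group was not analysed here. The comparison asks how transcript levels differ when Cd137 is introduced, in a study of macrophage migration and osteoclast formation.

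Both families are large cytosolic GTPases of cell-autonomous immunity. Interferons, above all interferon gamma, switch their genes on through JAK-STAT signalling and the interferon regulatory factors, and macrophages are among the strongest responders. Guanylate-binding proteins, called GBPs below, assemble on pathogens and on the vacuoles around them, and several promote inflammasome activation. Immunity-related GTPases, called IRGs below, come in 2 kinds. Irgm1, Irgm2 and Igtp (Irgm3) have an altered nucleotide-binding loop, sit on the cell's own membranes and hold the other kind in its inactive state. Iigp1 (Irga6) and Ifi47 (Irgd) have the usual loop and belong to the effectors that load onto vacuoles.

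The stretches below are the parts of the members' promoters that hold the core of the interferon-stimulated response element (ISRE), a DNA element read by interferon regulatory factors. They are shown because this element links interferon signalling to such genes. They come from RefSeq's annotation of GRCm38.p6, the assembly also known as mm10, and read 5′ to 3′ on the strand of the gene. Capitals mark the letters GAAANNGAAA or, on the other strand, TTTCNNTTTC. The lines give, in order, Gbp5 at chr3:142496739-142496808 (+), Gbp7 at chr3:142530253-142530322 (+), Gbp3 at chr3:142559969-142560043 (+), Gbp2 at chr3:142620574-142620643 (+), Irgm1 at chr11:48871425-48871480 (−), Igtp at chr11:58199492-58199555 (+) and Irgm2 at chr11:58214883-58214952 (+).
Gbp5: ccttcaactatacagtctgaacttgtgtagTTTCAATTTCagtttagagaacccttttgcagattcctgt
Gbp7: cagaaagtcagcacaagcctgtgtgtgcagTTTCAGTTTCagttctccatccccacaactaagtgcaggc
Gbp3: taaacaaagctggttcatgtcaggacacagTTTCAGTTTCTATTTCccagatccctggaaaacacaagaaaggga
Gbp2: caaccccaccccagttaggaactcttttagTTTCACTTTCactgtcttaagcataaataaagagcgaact
Irgm1: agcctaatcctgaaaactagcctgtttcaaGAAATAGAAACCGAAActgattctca
Igtp: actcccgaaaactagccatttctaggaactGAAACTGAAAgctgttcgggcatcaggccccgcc
Irgm2: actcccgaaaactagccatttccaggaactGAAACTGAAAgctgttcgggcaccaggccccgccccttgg

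RefSeq's promoter table held 8 of the 10 members; Gbp9 and Iigp1 had no entry. In the 250 bases before the annotated start, the ISRE core was found on either strand in 7 of those 8 members, against 3.46 percent of 27025 mouse genes and 2.98 percent of their 32851 promoters of the same length. Ifi47 was the member without a match. The 8 members have 9 promoters, because Gbp3 has a second (142560106 to 142560405), which held no match. In Gbp3 and Irgm1 there were 2 overlapping matches, and in the others 1. The match lay between 14 bases (Irgm1) and 155 bases (Gbp5) before the start. The deposited table places the starts of Gbp3 and Irgm1 further upstream, so that 28 and 30 of the printed bases lie inside those genes there. The letters TTCNNNGAA, a match to the gamma-activated site, occurred in 4 members, Gbp5, Gbp7, Igtp and Irgm2, against 8.13 percent of genes and 7.02 percent of promoters. A match to the NF-kB consensus occurred in 1 member, Gbp5, against 8.23 percent of genes and 7.25 percent of promoters. Such matches describe letters, not occupied sites. The promoters of Igtp and Irgm2 were 90.2 percent identical over 215 aligned bases, which the last pair of lines above shows.

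Levels are in FPKM, a fragment number scaled to transcript length and to the library's total, so that genes of different length can be compared. The FPKM of the 10 members summed to 15.48 in the control, 17.52 in CD137 replicate 2 and 17.47 in CD137 replicate 3. The IRGs made up nearly all of it, with 15.21, 16.19 and 16.42 FPKM, and the 5 GBPs had 0.27, 1.33 and 1.05 FPKM. Irgm1 was the highest member in every library and lay at the 55.0th percentile of genes with a value in the control. Irgm1, Ifi47, Igtp and Irgm2 reached 1 FPKM in some library and are called expressed below. All 5 GBPs and Iigp1 stayed under 1 FPKM in every library.

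**Figure D1:**
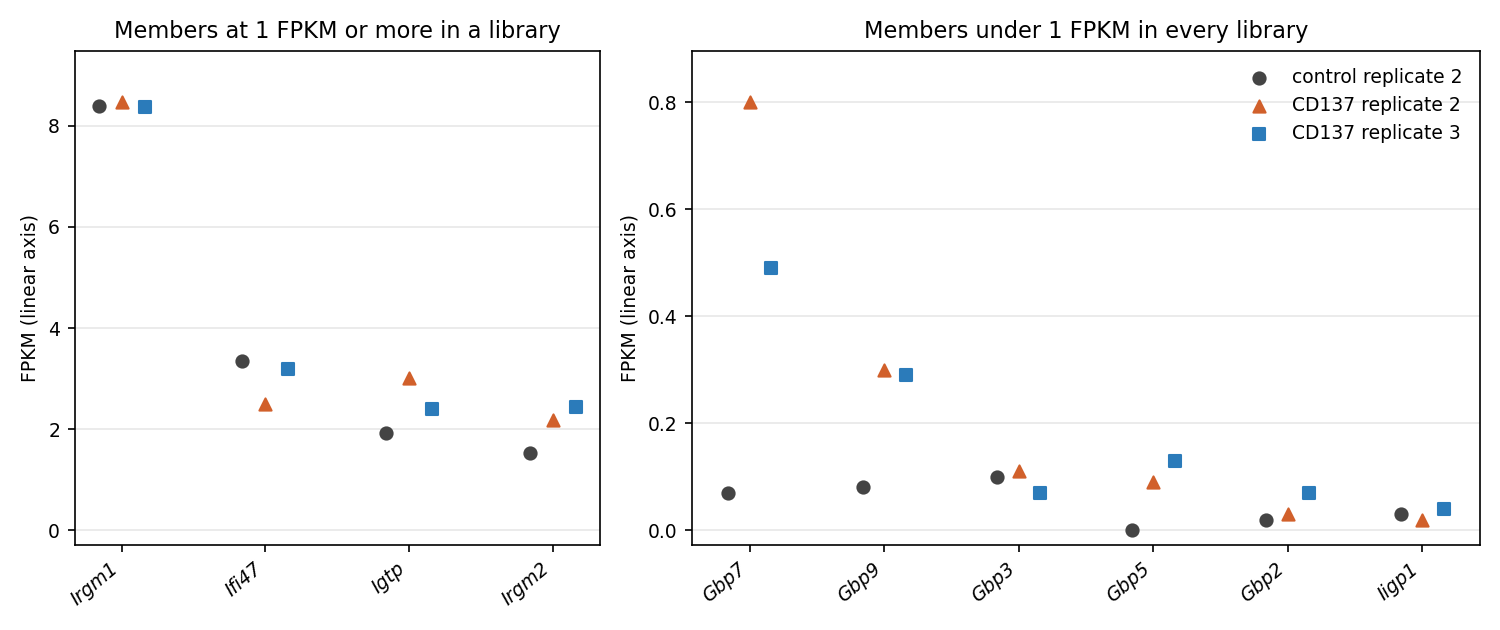
FPKM of the 10 members in control replicate 2 (circles), CD137 replicate 2 (triangles) and CD137 replicate 3 (squares), on linear axes that differ between the panels; each point is 1 library and there are no error bars. The left panel holds the expressed members, with Irgm1 near 8.4 FPKM in all 3 libraries; the right panel holds those under 1 FPKM, where Gbp7 and Gbp9 stand above their control points in both CD137 libraries.

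Among the 4 expressed members Irgm2 rose in CD137 cells, none fell, and Irgm1, Igtp and Ifi47 did not pass the test. The words rose and fell are used for genes with an adjusted p under 0.05 (limma on log2(FPKM + 1), Benjamini-Hochberg adjustment) among the 10720 genes that reach 1 FPKM in some library. In that fit 42.6 percent of genes passed, 24.4 percent higher and 18.2 percent lower in CD137 cells, so 1 call among 4 members is not more than the background. When all 16003 genes with a value were fitted, 0 percent passed (limma, smallest adjusted p = 0.0802), 33 percent had an unadjusted p under 0.05, and Irgm2 and Gbp9 were the members among these. Counting position alone, both CD137 libraries lay above the control for 6 members, below it for 1, and on either side of or level with it for 3. Over all genes with a value these shares were 43.5 percent above and 34 percent below. With 1 control library the spread comes from the CD137 libraries, the fit has 1 residual degree of freedom, and the control is assumed to vary as they do. An exact permutation test of 1 library against 2 cannot give a p below 0.333. Nothing in the labels says that the libraries came from separate cultures, so the p-values measure a spread between libraries that may be technical. In bulk RNA, fewer cells of a type and less RNA per cell cannot be told apart.

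Because most members are scarce, the fragments behind each value matter. They were recovered as whole numbers from the p-values in the authors' deposited table, which come from a Poisson test on pairs of libraries. Relative to the control, the depth was 0.983 in CD137 replicate 2 and 0.988 in CD137 replicate 3. An estimate from 15 genes puts it at 17800000 fragments in the control and 17600000 in each CD137 library; whether these are fragments or reads the table does not say. The intervals below are 95 percent exact intervals on a ratio of fragments corrected for depth. They cover counting error only and compare these libraries, not the conditions.

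The largest ratios to the control among the members were those of GBPs, all of them under 1 FPKM. Together the 5 GBPs had 20 fragments in the control, 115 in CD137 replicate 2 and 86 in CD137 replicate 3, a ratio of 5.10 (95 percent interval 3.22 to 8.53). Most of that came from Gbp7. None of the 5 passed a test across genes.

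Gbp7 (gene ID 229900, chromosome 3, 142530336 to 142550151, plus strand, mm10) encodes a GBP that helps deliver NADPH oxidase and autophagy components to vacuoles. The control had 0.07 FPKM, and CD137 replicates 2 and 3 had 0.80 and 0.49 FPKM. Both CD137 libraries were above the control, and replicate 2 was well above replicate 3. These values rest on 7, 80 and 48 fragments, and the CD137 mean of 0.645 ± 0.219 FPKM (SD, n = 2) gave a fragment ratio of 9.28 (4.38 to 23.54). In the limma fit of all genes the log2 fold change was 0.61 ± 0.17 (SE), with an adjusted p of 0.184. With filters of 0.25 and 0.5 FPKM, chosen after seeing the data, fewer genes are tested and the limma adjusted p was 0.0676 and 0.0513. Gbp7 passes the first filter only through the CD137 libraries and the second only through CD137 replicate 2. Those p-values thus follow from filters that admitted Gbp7 through the group where it was higher, and they are no support for a difference. The CD137 libraries also differed from each other, with a ratio of replicate 3 to replicate 2 of 0.597 (0.408 to 0.864), an interval that leaves out 1. Gbp7 shared 10.6 percent of its 50-base windows with the annotated transcript Gm43802 and 2.3 percent with Gbp3. These shares do not bound the error of its value, because the fragments that fell in shared windows were not counted.

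A set of epithelial genes was, like Gbp7, highest in CD137 replicate 2. Krt8, a keratin of simple epithelia, had 0.25 FPKM in the control against 2.60 and 0.66 FPKM in CD137 replicates 2 and 3. The 4 epithelial markers (Epcam, Krt8, Krt18, Cdh1) summed to 0.67, 6.28 and 1.17 FPKM in that order. Each of the 4 was highest in CD137 replicate 2, with Epcam at 0.44 FPKM there. Cdh1 had 0.06 FPKM in CD137 replicate 3 against 0.07 FPKM in the control. The fibroblast markers summed to 0.17, 0.77 and 0.21 FPKM, highest in the same library. In CD137 replicate 3 Gbp7 had a ratio to the control of 6.94 (3.12 to 18.18). The epithelial sum there, 1.17 FPKM, was also above the 0.67 FPKM of the control. The part of these markers in the Gbp7 values was not tested in either library.

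Gbp9 (gene ID 236573, chromosome 5, 105076464 to 105110352, minus strand) is a GBP of the chromosome 5 cluster. The control had 0.08 FPKM, and CD137 replicates 2 and 3 had 0.30 and 0.29 FPKM. The CD137 libraries were alike and both above the control, from 8, 25 and 25 fragments. The ratio of fragments was 3.17 (1.49 to 7.75). In the limma fit of all genes the log2 fold change was 0.26 ± 0.02 (SE) with an adjusted p of 0.0802. It is the smallest adjusted p of that fit but is not particular to Gbp9. Irf7 and Casp4 have it too, with smaller unadjusted p-values than Gbp9. The small SE of Gbp9 reflects the closeness of its CD137 values and the spread of other genes. It does not measure the counting error of the 8 control fragments, which the interval above covers. Gbp9 shared 8.3 percent of its 50-base windows with other genes, 4.6 percent with its neighbour Gbp8, which is described below. Gbp8 was far more abundant, at 4.61, 7.44 and 7.32 FPKM in the control and CD137 replicates 2 and 3. Even a small shared part could therefore matter at the level of Gbp9. How much of the Gbp9 values came from Gbp8 fragments was not tested.

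Gbp5 (gene ID 229898, chromosome 3, 142496934 to 142522344, plus strand) promotes NLRP3 inflammasome assembly. It was listed at 0 FPKM in the control, with 0 fragments, and had 0.09 and 0.13 FPKM in CD137 replicates 2 and 3, from 5 and 7 fragments. Both CD137 libraries were above the control, at levels close to the limit of detection. With the control library set at a floor of 3 fragments the ratio was 2.03. The 95 percent interval of the ratio starts at 1.41, has no upper end, and for CD137 replicate 2 alone starts at 0.932, below 1. The adjusted p in the limma fit of all genes was 0.154. In the authors' deposited table the Poisson p-values against the control were 0.0297 and 0.00744; they compare libraries.

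Gbp3 and Gbp2 had too few fragments to show a difference. Gbp3 (gene ID 55932, chromosome 3, 142560016 to 142573213, plus strand) had 0.10 FPKM in the control against 0.11 and 0.07 FPKM in CD137 replicates 2 and 3, from 4, 4 and 3 fragments. The CD137 values lay on both sides of the control, and the ratio was 0.888 (0.226 to 4.14). Gbp2 (gene ID 14469, chromosome 3, 142620663 to 142638008, plus strand), which in mouse restricts Toxoplasma and targets bacterial vacuoles, was at 0.02 FPKM in the control and 0.03 and 0.07 FPKM in the CD137 libraries. It was counted above as higher in both, but rests on 1, 1 and 3 fragments, a ratio of 2.03 (0.201 to 99.95). A difference was not detectable at this depth for either gene.

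The 4 chromosome 3 members lie in the order Gbp5, Gbp7, Gbp3, Gbp2 within 141075 bases and on 1 strand, with Gbp2b between the last pair. All 4 carry the ISRE core printed above, though the second promoter of Gbp3 does not. Gbp5 and Gbp7 are 7991 bases apart and Gbp3 lies 9864 bases beyond Gbp7. Gbp5, Gbp7 and Gbp2 were above the control in both CD137 libraries; the fragments of Gbp3 and Gbp2 are too few to show whether they differ from their neighbours. Among genes under 1 FPKM in every library, 32.4 percent were above the control in both CD137 libraries; of the 6 members at such levels, Gbp2, Gbp5, Gbp7 and Gbp9 were. So few genes at so low a level do not show whether this share differs from the background.

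**Figure D2:**
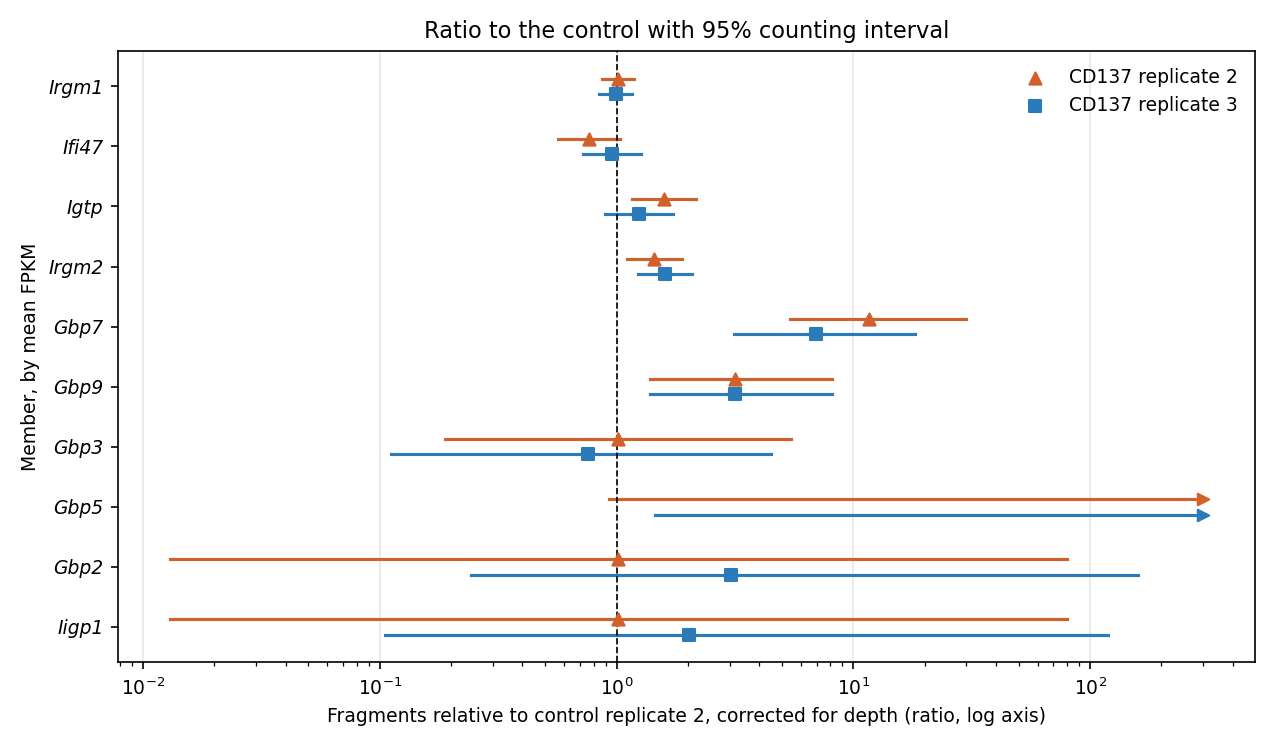
Ratio of fragments in each CD137 library to control replicate 2, corrected for depth, with exact 95 percent counting intervals, on a log axis; the dashed line marks a ratio of 1, members are ordered by mean FPKM, and arrows mark intervals without an upper end because Gbp5 had no fragments in the control. The intervals of both libraries lie above 1 for Irgm2, Gbp7 and Gbp9, and those of Irgm1 and Ifi47 include 1.

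The 3 regulatory IRGs, which restrain the effector IRGs on host membranes, gave 1 call. Irgm2 rose, Igtp was higher in both CD137 libraries without passing, and Irgm1 had nearly the same level in all 3 libraries. Irgm1 (gene ID 15944, chromosome 11, 48865245 to 48871454, minus strand) is the member tied to lysosomes, mitochondria and autophagy, and its loss in mice causes severe susceptibility to intracellular infection. The control had 8.40 FPKM, and CD137 replicates 2 and 3 had 8.47 and 8.37 FPKM. The CD137 values lay on both sides of the control. They rest on 325, 325 and 318 fragments, so the ratio of 1.004 has a narrow interval of 0.877 to 1.15, and a difference beyond that range is outside what counting error allows in these libraries. The limma adjusted p among expressed genes was 0.975. Irgm1 shared 0 percent of its 50-base windows with any other gene.

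Irgm2 (gene ID 54396, chromosome 11, 58214977 to 58222783, plus strand), a Golgi-associated IRG that also limits caspase-11 responses to lipopolysaccharide, had 1.52 FPKM in the control against 2.18 and 2.43 FPKM in CD137 replicates 2 and 3. Both CD137 libraries were above the control, and they differed from each other by less than either did from it. Their mean of 2.31 ± 0.177 FPKM (SD, n = 2) was 1.52 times the control value. From 96, 136 and 152 fragments the ratio was 1.52 (1.204 to 1.94). On the log2(FPKM + 1) scale, which understates changes of low genes, Irgm2 rose by 0.39 ± 0.12 (SE), with a limma adjusted p of 0.0476. The call was near the threshold: the adjusted p was 0.143 with no filter on low values and 0.0606 with a filter of 0.25 FPKM.

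Igtp (gene ID 16145, chromosome 11, 58199556 to 58207592, plus strand) encodes Irgm3, an IRG of the endoplasmic reticulum and lipid droplets. The control had 1.92 FPKM, and CD137 replicates 2 and 3 had 3.02 and 2.39 FPKM. Both CD137 libraries were above the control, with replicate 2 the higher. The ratio of fragments was 1.58 (1.16 to 2.17) in replicate 2 and 1.24 (0.897 to 1.73) in replicate 3. The log2 fold change of 0.34 ± 0.14 (SE) did not pass among expressed genes (limma adjusted p = 0.110). That the test called Irgm2 and not Igtp is no evidence of a difference between them, which was not tested.

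Igtp and Irgm2 are neighbours on 1 strand, 7384 bases apart, and their promoters are nearly alike in the lines printed above. Their transcripts also share sequence: 12.3 percent of the 50-base windows of Igtp and 6.3 percent of those of Irgm2 occur in the other. Fragments from these windows could be assigned to either gene. In the CD137 libraries the order of the pair changed with the library, Igtp being higher in replicate 2 and Irgm2 slightly higher in replicate 3. Gm12250 (Irgb10), an effector IRG that lies 9357 bases before Igtp, was at 0.02 FPKM in all 3 libraries.

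Neither effector IRG rose or fell. Ifi47 (gene ID 15953, chromosome 11, 49076587 to 49096987, plus strand) had 3.34 FPKM in the control against 2.50 and 3.19 FPKM in CD137 replicates 2 and 3. It was the 1 member with both CD137 libraries below the control, and replicate 3 was close to it. From 106, 80 and 100 fragments the ratio was 0.862 (0.674 to 1.11). The log2 fold change of -0.18 ± 0.14 (SE) did not pass (limma adjusted p = 0.337). Ifi47 lies inside an annotated overlap with Olfr56, an olfactory receptor gene on the same strand, listed at 0.03, 0 and 0.06 FPKM.

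Iigp1 (gene ID 60440, chromosome 18, 60373621 to 60392634, plus strand), which coats and disrupts Toxoplasma vacuoles in interferon-stimulated cells, was close to silent. The control had 0.03 FPKM, and CD137 replicates 2 and 3 had 0.02 and 0.04 FPKM, from 1, 1 and 2 fragments. The CD137 values lay on both sides of the control, and a difference was not detectable at this depth.

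In the order of levels within the CD137 group, some neighbours could not be separated. Ifi47 (2.50 to 3.19 FPKM) overlapped Igtp (2.39 to 3.02 FPKM), and Igtp overlapped Irgm2 (2.18 to 2.43 FPKM). Gbp7 (0.49 to 0.80 FPKM) stood clear of Gbp9 (0.29 to 0.30 FPKM). Gbp5, Gbp3, Gbp2 and Iigp1 followed at 0.13 FPKM or less, each overlapping the next. In the control Gbp3, Gbp9 and Gbp7 had 0.10, 0.08 and 0.07 FPKM, so Gbp7 did not lead the GBP members there.

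The other genes of these families give the setting. Of 21 such genes listed, 17 have a value and 6 were expressed; of these 1 rose, 2 fell and 3 did not pass, with a median log2 fold change of 0.04 against 0.03 for all expressed genes and 0.17 for the 4 expressed members. Gbp8, 22854 bases from Gbp9, rose: it was at 4.61 FPKM in the control and 7.44 and 7.32 FPKM in the CD137 libraries, a log2 fold change of 0.58 ± 0.07 (SE) with a limma adjusted p of 0.00442. It was the most abundant GBP gene in every library, above all 5 GBP members together. Gbp8 and Gbp9 thus had both CD137 libraries above the control and close to each other. The genes that fell were 9930111J21Rik1 and 9930111J21Rik2, a pair of IRG-like genes on chromosome 11.

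The first of them, 9930111J21Rik1, was at 5.81, 3.78 and 3.37 FPKM in the control and CD137 replicates 2 and 3, and fell by 0.58 on the log2 scale (limma adjusted p = 0.00991). The other, 9930111J21Rik2, was at 1.79, 0.61 and 0.71 FPKM and fell by 0.75 (limma adjusted p = 0.0122). It reached 1 FPKM only in the control, so the filter admitted it through the group where it was higher. The pair share 79.8 and 53.3 percent of their 50-base windows with other genes, mostly with each other, so their separate values are uncertain. Gm12185, of the same chromosome 11 group, was at 0.39, 0.20 and 0.21 FPKM. Gm5431, whose windows are 47.6 percent shared, was at 0.73, 0.35 and 0.80 FPKM, with the CD137 libraries on both sides of the control.

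Gvin1, a very large interferon-inducible GTPase, had values on both sides of the control. The control had 0.78 FPKM and CD137 replicate 2 had 2.34 FPKM, and it was listed at 0 in CD137 replicate 3, from 120, 356 and 0 fragments. Of its 50-base windows 98.3 percent occur in Gm4070, so the split between copies is not fixed by the sequence. Its limma adjusted p was 0.971. Irgq, an IRG-like protein of autophagy, was at 4.63, 4.92 and 5.15 FPKM (limma adjusted p = 0.368), and F830016B08Rik at 1.18, 1.42 and 1.10 FPKM (limma adjusted p = 0.810). The remaining genes of the list were under 1 FPKM in every library. Gm4841 was at 0.34, 0.41 and 0.39 FPKM. Gbp6 was at 0.11, 0.07 and 0.17 FPKM, Gbp4 at 0.01, 0.10 and 0.08 FPKM, and Gbp10 at 0, 0.11 and 0.05 FPKM. Gbp2b, Tgtp2, Irgc1 and Gm4951 stayed at 0.10 FPKM or less.

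**Figure D3:**
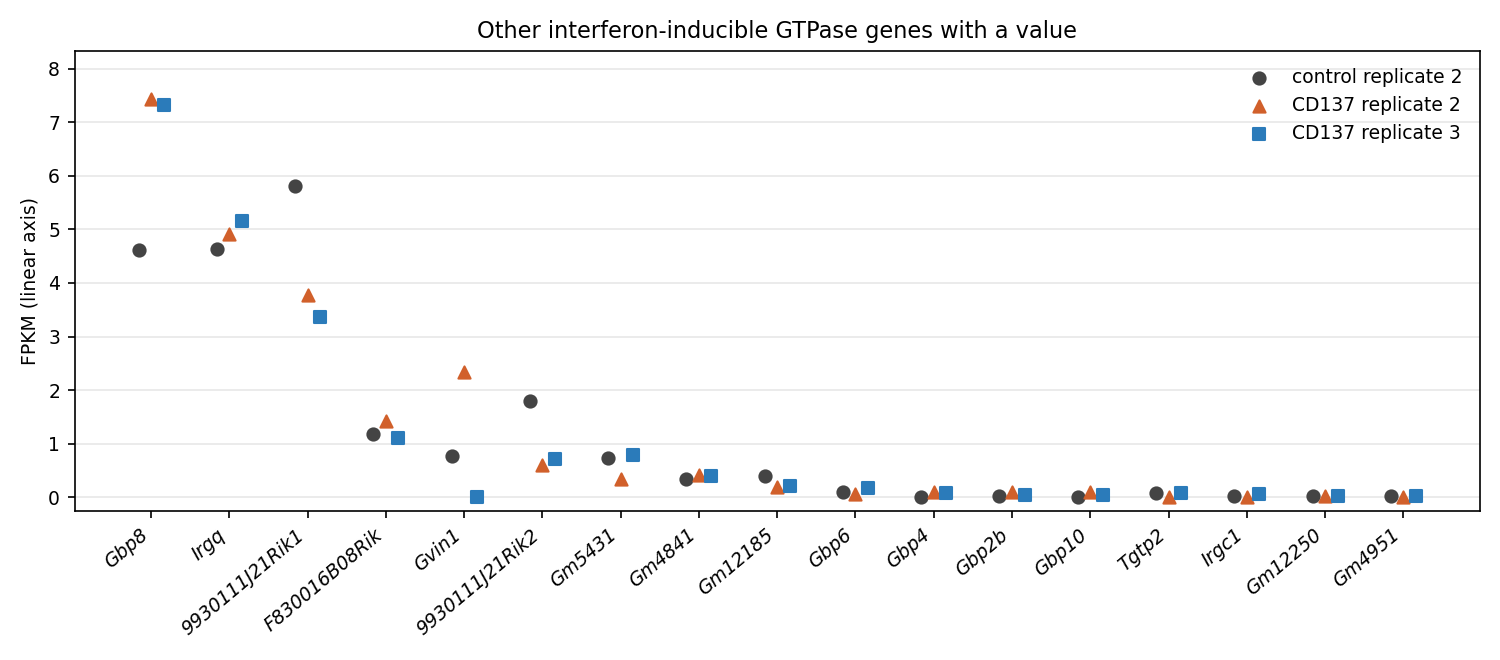
FPKM of the 17 other listed genes of the GTPase families with a value, on a linear axis. Circles are control replicate 2, triangles CD137 replicate 2 and squares CD137 replicate 3, and each point is 1 library. Not every gene shown need be interferon-inducible. Gbp8 is higher in both CD137 libraries, 9930111J21Rik1 and 9930111J21Rik2 are lower in both, Gvin1 runs from 2.34 to 0 FPKM between the CD137 libraries, and 11 genes stay under 1 FPKM.

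The interferon genes looked up, Ifng, Ifnb1, Ifna1, Ifna2, Ifna4, Ifnl2 and Ifnl3, have no value in any library. Other interferon genes were not looked up. Of all expressed genes 24.4 percent rose and 18.2 percent fell, which is the background for this list and those below. Of the 5 expressed receptor genes 4 rose, with a median log2 fold change of 0.36. Ifnar2, a chain of the type I receptor and the most abundant of them, was at 81.54 FPKM in the control and 115 and 110 FPKM in the CD137 libraries, a rise of 0.46 ± 0.05 (SE, limma adjusted p = 0.00264). Ifnar1 rose by 0.37 and Il10rb by 0.36. The interferon gamma receptor chain Ifngr1 rose by 0.20, from 25.41 FPKM to 28.90 and 29.77 FPKM (limma adjusted p = 0.0305). Ifngr2, named here because it was the 1 receptor gene that did not pass, had a log2 fold change of 0.15 (limma adjusted p = 0.0511).

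Of 13 JAK-STAT and IRF genes 5 rose, 2 fell and 6 did not pass, with a median of 0.16. Irf7, an amplifier of type I interferon responses, rose from 2.07 FPKM to 5.59 and 5.52 FPKM (log2 fold change 1.09 ± 0.08 SE, limma adjusted p = 0.00158). Irf1, an activator of GBP and IRG promoters, rose from 5.80 FPKM to 8.79 and 8.54 FPKM (0.51 ± 0.07 SE, limma adjusted p = 0.00555). Jak2 and Tyk2 rose by 0.38 and 0.43. Irf5, the most abundant of the list, was at 49.39, 40.88 and 46.20 FPKM (limma adjusted p = 0.129). The other calls, named after their values were seen, were Stat3, which rose, and Irf8 and Irf2, which fell by 0.31 and 0.24.

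Among 7 expressed feedback inhibitors 1 rose, 1 fell and 5 did not pass. Usp18, which blocks signalling from the type I receptor, rose from 2.50 FPKM to 5.11 and 5.28 FPKM (log2 fold change 0.82 ± 0.09 SE, limma adjusted p = 0.00274). Ptpn6, the phosphatase SHP-1 and the most abundant of them, fell by 0.23. Socs3 (0.22, limma adjusted p = 0.0932) and Pias1 (-0.15, limma adjusted p = 0.102) did not pass. Socs1, named after its values were seen, was at 0.05, 0.43 and 0.09 FPKM, from 1, 9 and 2 fragments. It was highest in CD137 replicate 2, but these are too few fragments to place it with other genes highest there.

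The machinery that brings GBPs and IRGs to vacuoles includes ubiquitin-like ATG8 proteins and their conjugation enzymes. Of 16 expressed genes 9 rose, 1 fell and 6 did not pass, with a median of 0.31. Sqstm1, the autophagy receptor p62 and the most abundant, was at 352 FPKM in the control and 670 and 664 FPKM in the CD137 libraries (log2 fold change 0.92 ± 0.03 SE, limma adjusted p = 0.000552). Map1lc3a rose from 3.43 FPKM to 8.46 and 8.63 FPKM (1.11 ± 0.07 SE, limma adjusted p = 0.00116). The ATG8 genes Gabarapl1 and Gabarap rose by 0.47 and 0.35. Atg16l1, part of the conjugation complex and named because it was the 1 gene that fell, fell by 0.27.

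Several GBPs, Gbp2 and Gbp5 among them, are anchored to membranes by a lipid added to a C-terminal CaaX box. None of the 6 genes for prenylation and CaaX processing rose or fell by limma, and 2 of them, Fnta and Zmpste24, had an unadjusted p under 0.05. Fnta, the shared subunit of the prenyltransferases and the most abundant, was at 37.28, 40.57 and 41.81 FPKM (limma adjusted p = 0.0668).

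Inflammasome genes linked to GBPs gave 6 that rose, 1 that fell and 2 that did not pass among 9 expressed. Casp4, which encodes caspase-11, the lipopolysaccharide sensor that GBPs help to activate, was at 17.55 FPKM in the control and 52.61 and 57.45 FPKM in the CD137 libraries. Its log2 fold change was 1.59 ± 0.07 (SE), with a limma adjusted p of 0.000755. Casp8 rose by 0.36, Ninj1, the membrane-rupture protein and most abundant of the list, by 0.39, and Il18 by 0.37. Nlrp3, named because it was the 1 gene that fell, went from 18.59 FPKM to 13.71 and 14.14 FPKM (limma adjusted p = 0.00657).

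Other effectors that interferon gamma induces in macrophages were split. Of 9 expressed, 4 rose, 4 fell and 1 did not pass. Cybb, the catalytic subunit of NADPH oxidase, fell from 217 FPKM to 147 and 144 FPKM (log2 fold change -0.58 ± 0.04 SE, limma adjusted p = 0.00113). Acod1, the itaconate-producing enzyme, fell from 3.80 FPKM to 1.08 and 1.07 FPKM (-1.21 ± 0.11 SE, limma adjusted p = 0.00214). Ncf1 fell by 0.42, and Ncf4, of the same oxidase, rose by 0.39. Cyba, the most abundant of the list, rose by 0.26. Cxcl10, a chemokine named after its values were seen, rose from 0.30 FPKM to 1.65 and 1.75 FPKM (limma adjusted p = 0.00418). Cxcl10 reached 1 FPKM only in the CD137 libraries, so the filter admitted it through the group where it was higher. Other genes of the list, also named after their values were seen, did not rise. Cxcl9 was at 0.19, 0.09 and 0.31 FPKM and Ciita at 0.03 FPKM or less, both under the filter. Ido1 and Ubd had no value in any library. Nos2 was the 1 expressed gene that did not pass (limma adjusted p = 0.0612).

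Across these 8 lists and leaving out the 10 members, 41 of 71 expressed genes passed, 30 higher and 11 lower. Of all expressed genes 42.6 percent passed, 24.4 percent higher and 18.2 percent lower. The lists share libraries, and their genes were gathered with earlier results of these data known, so the counts are descriptions and say nothing particular to interferon genes.

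**Figure D4:**
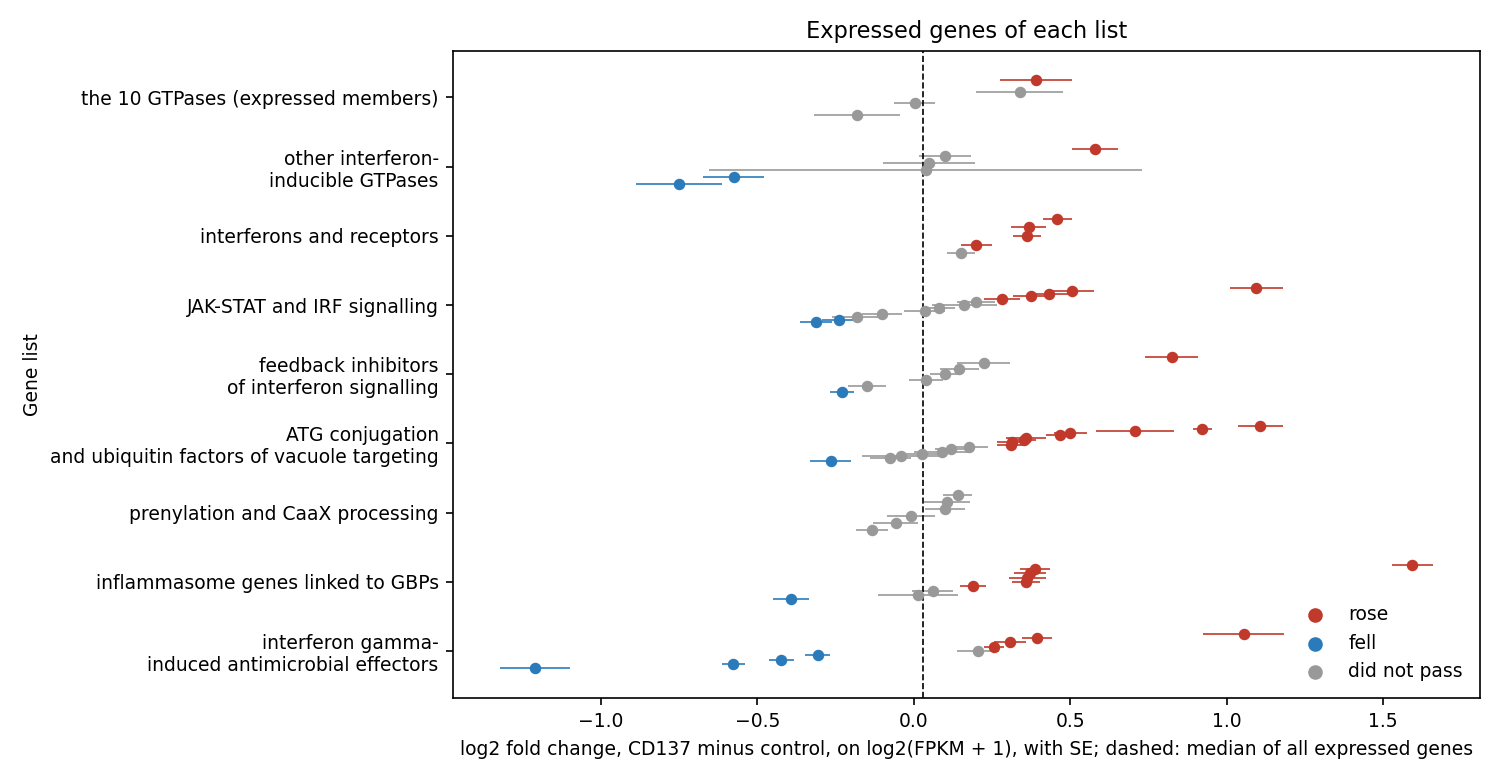
Log2 fold change of every expressed gene of each list, CD137 minus control on log2(FPKM + 1), with its SE from the limma fit; red genes rose, blue genes fell and grey genes did not pass, and the dashed line is the median of all expressed genes, 0.03. Of the 4 expressed members in the top row only Irgm2 is red, and the genes farthest from 0 are Casp4 at 1.59 and Acod1 at -1.21.

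The labels were checked with Tnfrsf9, at 5.06 FPKM in the control and 364 and 370 FPKM in the CD137 libraries, although introduced and endogenous transcripts are not separated. Of 7 macrophage markers 6 were expressed; Fcgr1, Itgam and Adgre1 rose, Csf1r, Cd14 and Cd68 fell, and Mrc1 was at 0.05 FPKM or less. The T cell, B cell and neutrophil markers with a value each summed, list by list, to 0.92 FPKM or less in every library, and the NK cell markers had no value. The dendritic cell markers summed to 0.87, 1.61 and 1.76 FPKM in the control and CD137 replicates 2 and 3, and Zbtb46 rose (limma adjusted p = 0.0252). At 0.64, 1.36 and 1.45 FPKM, Zbtb46 reached 1 FPKM only in the CD137 libraries, and the filter admitted it through them. Of the osteoclast markers Acp5 and Dcstamp rose by 0.59 and 0.34 on the log2 scale, and Ctsk was at 0.07, 0.80 and 0.77 FPKM. The part of these markers in the members' values was not tested.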

How the data were processed

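The 10 members were read by symbol from 1 table, whose columns were matched to samples by title. Its FPKM values were deposited by the authors for each library separately and rounded to 0.01. The submitters' processing notes name HISAT2, Bowtie2, RSEM and mm10, with neither version nor role. Strandedness is not given in the sources used here, nor is read length. The table also holds log2 ratios, p-values of a Poisson test between pairs of libraries, and adjusted values that exceed 1 and were treated as a score, all deposited by the authors.

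Log2(FPKM + 1) was fitted with limma 3.58.1 (R 4.3.3, empirical Bayes with trend) over the 10720 genes that reach 1 FPKM in some library. P-values were adjusted by Benjamini-Hochberg and 0.05 was the threshold. The fit was tested on simulated data. Whole fragments were solved from the deposited p-values for 100 of the 126 listed genes with a value, including all members. Sequence sharing was measured as 50-base windows of the longest transcript found in other genes. Promoter matches used RefSeq's table. Alternatives were other filters, a pseudocount of 0.1, median-ratio scaling, no variance trend, and leaving out a CD137 library.

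The members, gene lists and fit were chosen with earlier results of these data known. Genes named are the members, other GTPases with a value, and, per list, up to 4 with the smallest p and the most abundant; others are marked in the text.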

Additional observations from a re-analysis of the deposited data

How the results depend on the processing

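The count of 1 member past the threshold rested on Irgm2. It was 0 of 10 with no filter on low values, 0 of 1 with a filter of 5 FPKM, which removes Irgm2, and 0 of 6 with a filter of 0.25 FPKM, chosen after seeing the data. It was 1 with a pseudocount of 0.1, with median-ratio scaling, with no variance trend and with a filter of 0.5 FPKM (also chosen after seeing the data), where the limma adjusted p of Irgm2 ran from 0.0305 to 0.0484. With no filter the calls among all genes went from 4563 to 0, and those among other pathway genes from 41 to 0; with the other settings they ran from 3527 to 4809 and from 38 to 41. Among the members, the log2 fold change of Irgm1 turned to -0.02 with median-ratio scaling; of the other GTPases, that of Gvin1 turned to -0.83 with a pseudocount of 0.1. Neither gene passed in any setting. Leaving out CD137 replicate 2 or 3 leaves no residual degrees of freedom, so it gives values without a test. Without CD137 replicate 2 and without CD137 replicate 3, in that order, the log2 fold change was 0.44 and 0.34 for Irgm2, 0.22 and 0.46 for Igtp, -0.05 and -0.31 for Ifi47, and -0.0046 and 0.011 for Irgm1. Among the other GTPases it was -0.05 and 0.15 for F830016B08Rik and -0.83 and 0.91 for Gvin1. No paired analysis was possible because the groups share only replicate number 2 in the table. Depth limits Gbp2, Gbp3 and Iigp1, with 4 fragments or fewer in every library, and Gbp5, with 7 or fewer.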
